A study of Mus musculus with 12 samples.

Results

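The genes described here are 9 genes of haemoglobin production and of the red cell precursor, or erythroblast, taken by symbol from a table of 18467 genes measured in 12 libraries of sorted mouse marrow cells. They are the adult globin genes Hba-a1, Hba-a2, Hbb-bs and Hbb-bt, and the erythroblast genes Alas2, Slc4a1, Ahsp, Klf1 and Epor. Of the 9, Ahsp is absent from the table and 8 have a row. Of those 8, 6 had enough counts to be tested, and Klf1 and Epor fell under the filter on low counts and are given by their values. The cells came from female Albino B6 mice that were 8 weeks old when E0771 cells, a mouse breast cancer line, were injected into the caudal artery to give bone metastases, and from healthy control mice. General macrophages were sorted from femur and tibia marrow as CD11b+F4/80+ cells and niche macrophages as VCAM1+CD163+CCR3+ cells, each from normal and from metastatic marrow, which gave 4 groups of 3 libraries from different mice. Red cells had been lysed and the sort kept live single cells, per the labels' protocols, and the labels name no other treatment or genetic change in any group. Both sorts carry the words general macrophages in their sample titles, so the population was taken from the sorting antigens. The libraries of niche macrophages from normal marrow are called A, B and C, because the numbers in the table and in the titles differ.

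Haemoglobin is a tetramer of alpha-globin and beta-globin chains, each holding a haem group, and its genes are among the most strongly transcribed genes of the late erythroblast. In the marrow, erythroblasts mature in contact with a central macrophage, in what is called the erythroblastic island, and this macrophage takes up the nuclei that they expel. Alas2 encodes the erythroid enzyme of the first step of haem synthesis, Slc4a1 the anion exchanger band 3 of the red cell membrane, and Ahsp a chaperone of free alpha-globin. Klf1 is a transcription factor that activates the beta-globin gene, and Epor is the receptor for erythropoietin, the hormone that keeps erythroid progenitors alive.

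The globin genes come in pairs whose coding sequences are almost identical, which bears on every value of a single globin gene below. In the GENCODE M21 transcripts, Hba-a1 and Hba-a2 differ at 1 of 429 coding bases (99.8% identity) and share an unbroken run of 415 bases. Hbb-bs and Hbb-bt differ at 1 of 444 coding bases and share a run of 430 bases. The transcripts are 699 and 554 bases long for Hba-a1 and Hba-a2 and 628 and 703 for Hbb-bs and Hbb-bt. Part of each transcript thus lies outside the shared run. A read that lies inside a shared run carries nothing that tells the copies apart. The stretch of exon 3 around the differing base is shown for each gene in the sense of transcription, with that base in capitals.
Hba-a1: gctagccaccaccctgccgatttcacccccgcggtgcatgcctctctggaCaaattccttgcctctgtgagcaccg
Hba-a2: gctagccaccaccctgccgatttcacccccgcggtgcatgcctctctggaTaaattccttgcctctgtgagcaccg
Hbb-bs: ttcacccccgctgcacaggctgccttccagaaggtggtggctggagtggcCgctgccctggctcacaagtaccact
Hbb-bt: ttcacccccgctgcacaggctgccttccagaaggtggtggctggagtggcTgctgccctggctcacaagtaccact
These stretches lie on build GRCm38 (mm10) at chr11:32284293-32284368 and chr11:32297110-32297185 on the plus strand for the alpha pair, and at chr7:103826667-103826742 and chr7:103812658-103812733 on the minus strand for the beta pair.

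Library totals lay between 13687957 and 30332442 counts, and 3 counts, the most that a count of 0 allows, corresponded to between 0.109 and 0.243 CPM. CPM sets the expected count of a gene against its library's total, scaled by the TMM method, a correction for differences in library composition. The spread between replicates was wide, with a common biological coefficient of variation of 1.30 over 12882 tested genes. Many genes were near 0 in one library and high in another of the same group: 48.3% of the 18467 genes had at most 3 counts in one library and at least 100 in another of one group. This held for 6 of the 8 genes described here, Hba-a1, Hba-a2, Hbb-bt, Alas2, Klf1 and Epor. Hbb-bs and Slc4a1 had more than 3 counts in all 12 libraries, as did 34.3% of all genes.

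Globin transcripts were present in all 12 libraries and were more abundant in niche than in general macrophages. The 4 globin genes together made up between 0.00114% and 0.00951% of the counts in general macrophages and between 0.0422% and 0.121% in niche macrophages. In general macrophages from normal marrow their summed level was 98.3, 28.8 and 11.8 CPM in replicates 1 to 3 (46.3 ± 45.8, SD, n = 3). With metastasis, general macrophages had 62.6, 82.1 and 64.5 CPM (69.7 ± 10.7, SD, n = 3). In niche macrophages it was 764, 756 and 435 CPM in normal marrow (651 ± 188, SD, n = 3) and 1136, 779 and 382 CPM in metastatic marrow (766 ± 377, SD, n = 3). Every niche library thus lay above every general library, and the 2 marrow states overlapped within each population. In these bulk samples, more erythroid cells and more globin RNA per cell cannot be told apart. No test was made on sums.

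Hbb-bs received most of the globin counts in every library but general metastatic replicate 3. Hbb-bs was at 53.9, 28.2 and 11.1 CPM in general macrophages from normal marrow and at 55.9, 71.9 and 20.3 CPM in those from metastatic marrow. The niche libraries held 454, 627 and 366 CPM in normal marrow and 636, 667 and 272 CPM in metastatic marrow. All 6 niche libraries were above all 6 general libraries, as for 1.97% of the 12882 tested genes, and niche metastatic replicate 3 was the lowest of the niche libraries. The beta pair summed to between 11.3 and 81.0 CPM in general macrophages and between 309 and 861 CPM in niche macrophages. The alpha pair summed to between 0.356 and 28.9 CPM in general and between 55.2 and 276 CPM in niche macrophages. Within niche macrophages, alpha-globin made up 17.8% ± 2.61 (SD, n = 3) of the globin CPM in normal marrow and 16.8% ± 8.82 (SD, n = 3) in metastatic marrow. In general macrophages this share ran from 1.23% to 44.8%, at levels where 2 libraries had fewer than 10 alpha-globin counts.

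**Figure D1:**
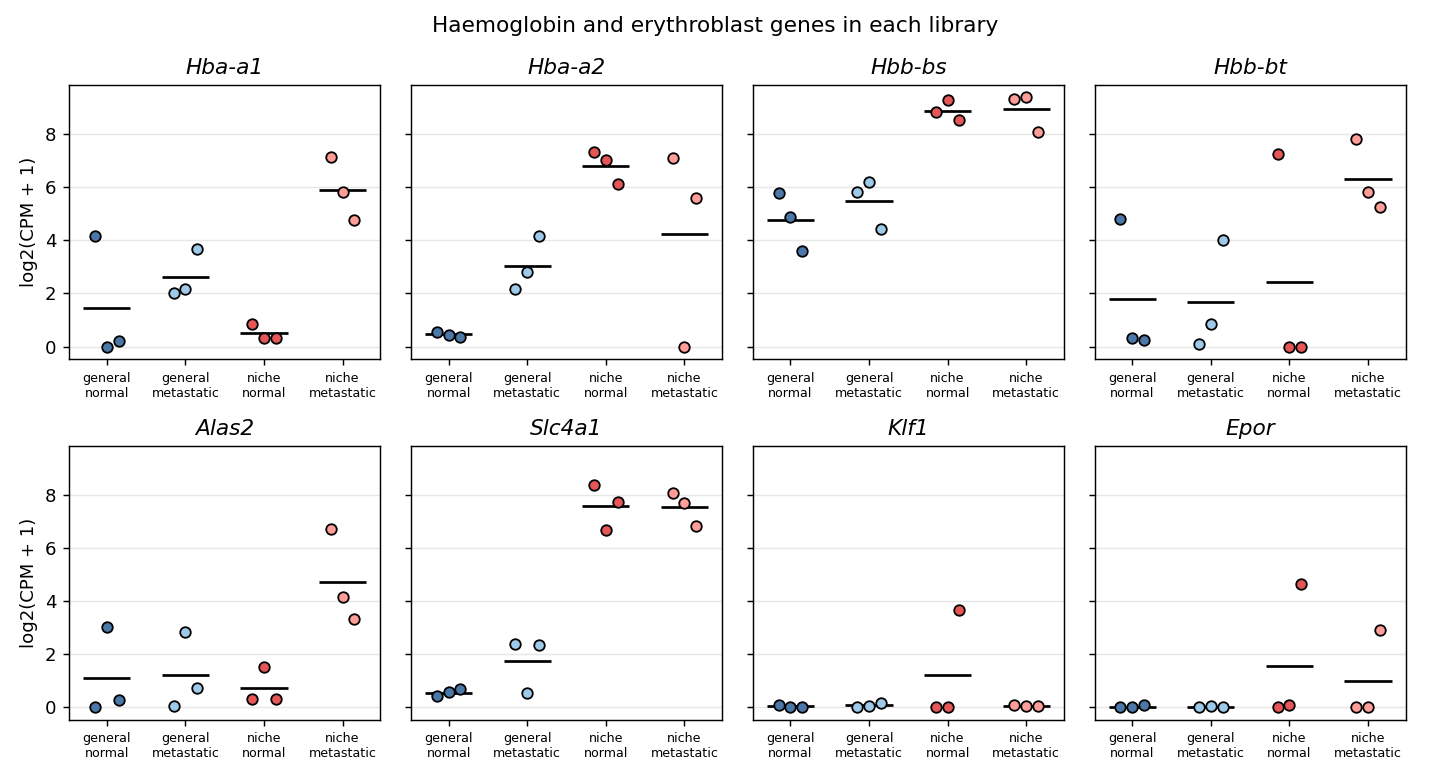
Level of each of the 8 genes with a row in the table, as log2(CPM + 1) on the vertical axis, in the 4 groups on the horizontal axis; each point is 1 library and the line is the mean of 3. Hbb-bs and Slc4a1 are higher in all 6 niche libraries than in all 6 general libraries, while Hba-a1, Hba-a2, Hbb-bt and Alas2 hold libraries near 0 beside high ones, and Klf1 and Epor are near 0 except in 1 and 2 niche libraries.

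How the counts of a pair were divided between its copies changed from library to library. In niche macrophages from normal marrow, Hba-a1 had 9.64, 5.40 and 4.72 expected counts, and Hba-a2 had 1945, 2576 and 1358. In niche macrophages from metastatic marrow, Hba-a1 had 2787, 1263 and 701 expected counts, and Hba-a2 had 2671, 0 and 1284. The share of the alpha pair given to Hba-a1 thus ran from 0.209% to 0.493% in niche normal libraries and stood at 51.1%, 99.999% and 35.3% in niche metastatic replicates 1 to 3. Hbb-bt had 1861, 0 and 0.006 expected counts in niche normal libraries A to C and 4444, 1283 and 1004 in niche metastatic replicates 1 to 3. The share of the beta pair given to Hbb-bt was 25% in niche normal library A, 0% in B and 8e-05% in C, and between 7.75% and 26.1% in niche metastatic libraries. Across the 6 niche libraries Hba-a2 ran from 0 to 158 CPM and Hbb-bt from 0 to 224 CPM. Differences of Hba-a1, Hba-a2 or Hbb-bt between groups are given as uncertain.

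**Figure D2:**
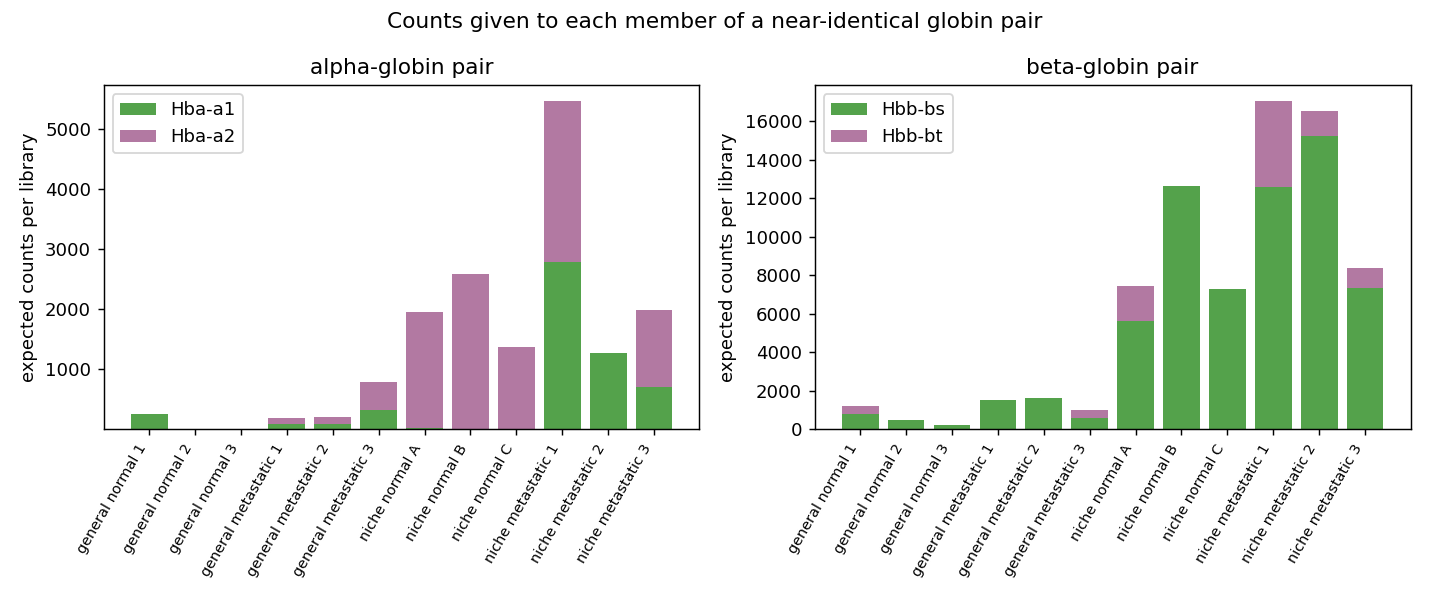
Expected counts, not scaled for library size, of the alpha-globin pair (left) and the beta-globin pair (right) in each of the 12 libraries on the horizontal axis, stacked by copy. Nearly all alpha-globin counts of niche normal libraries stand under Hba-a2 and nearly all of niche metastatic replicate 2 under Hba-a1, whereas Hbb-bs holds most beta-globin counts in all 12 libraries.

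Slc4a1, the band 3 gene, separated the populations most widely of the 6 tested genes. It had 5, 8 and 12 counts in general macrophages from normal marrow and 115, 10 and 110 in those from metastatic marrow, which is 0.343 to 0.600 and 0.452 to 4.2 CPM. The niche libraries held 331, 100.1 and 211 CPM in normal marrow and 269, 208 and 114 CPM in metastatic marrow. The lowest niche library, niche normal B, lay far above the highest general library, general metastatic replicate 1. The gene lies at chr11:102348824-102366203 on the minus strand and overlaps no other annotated gene.

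Alas2, the gene of erythroid haem synthesis, did not follow Slc4a1. The niche libraries held 0.244, 1.89 and 0.251 CPM in normal marrow and 105, 16.7 and 8.94 CPM in metastatic marrow. General macrophages had 0, 7.18 and 0.200 CPM in normal and 0.0365, 6.19 and 0.659 CPM in metastatic marrow. The 3 niche metastatic libraries were above the other 9, and the niche normal libraries lay inside the range of the general ones. Alas2 overlaps Apex2 on the opposite strand. As the strand setting of the counting is not given in the sources used here, reads inside the overlap cannot be told apart.

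Klf1 and Epor were near the limit of detection in most libraries. Klf1 had 236 counts (11.8 CPM) in niche normal library C and at most 3 counts in each of the other 11 libraries. Epor had 481 counts (24.1 CPM) in niche normal library C, 179 counts (6.62 CPM) in niche metastatic replicate 3 and at most 1 count in each of the other 10. The same library thus gave the highest value of both genes, and it gave the lowest Hbb-bs of the niche normal group. With 1 high library in a group, neither gene can be said to differ between groups.

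The first comparison asked which of these genes differed between niche and general macrophages. In normal marrow, 3 of the 6 tested genes were higher in niche macrophages by edgeR's quasi-likelihood test with Benjamini-Hochberg adjustment over all tested genes, against 2.47% of the 12882 genes called in either direction and 1.5% called higher. Slc4a1 rose by 8.79 ± 0.85 on the log2 scale (SE; edgeR adjusted p = 4.9e-06), Hbb-bs by 3.96 ± 0.55 (SE; edgeR adjusted p = 0.000255) and Hba-a2 by 8.27 ± 1.73 (SE; edgeR adjusted p = 0.0116). The groups did not overlap for these 3 genes, which was so, with niche higher, for 10% of tested genes. Hba-a1 (-3.70), Hbb-bt (2.46) and Alas2 (-1.62) did not pass (edgeR adjusted p = 0.269, 0.607 and 0.779). For each of these 3 genes 1 library set the sign: Hba-a1 was at 2.40 without general normal replicate 1, Hbb-bt at -10.63 without niche normal library A and Alas2 at 2.89 without general normal replicate 2. The call of Hba-a2 was lost when general normal replicate 1, 2 or 3 was left out (edgeR adjusted p = 0.0542, 0.0608 and 0.06), and with limma-voom, run here with sample quality weights throughout, the adjusted p was 0.0948 for Hbb-bs and 0.0858 for Hba-a2.

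In metastatic marrow, 2 of the 6 genes were called higher in niche macrophages, against 0.831% of all tested genes called in either direction and 0.574% called higher. Slc4a1 rose by 6.08 ± 0.74 on the log2 scale (SE; edgeR adjusted p = 0.000107) and Hbb-bs by 3.41 ± 0.54 (SE; edgeR adjusted p = 0.00156). Hba-a1 (3.59), Hba-a2 (2.78), Hbb-bt (4.29) and Alas2 (4.24) did not pass (edgeR adjusted p = 0.604, 0.581, 0.672 and 0.672). Niche libraries were above general ones without overlap for Slc4a1, Hbb-bs, Hba-a1, Hbb-bt and Alas2, as for 8.34% of tested genes. With limma-voom the adjusted p of Slc4a1 was 0.0538.

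Averaged over both marrow states, which sets 6 niche against 6 general libraries, 3 of the 6 genes were called higher, against 4.21% of tested genes in either direction and 2.59% higher. The log2 fold changes were 7.44 ± 0.57 for Slc4a1 (SE; edgeR adjusted p = 6.51e-08), 3.68 ± 0.38 for Hbb-bs (SE; edgeR adjusted p = 3.55e-06) and 5.52 ± 1.08 for Hba-a2 (SE; edgeR adjusted p = 0.0042). These are a 173-fold, a 12.9-fold and a 46-fold difference. That of Hba-a2 is uncertain, as it depends on how the counts of the alpha pair were divided. The mean sum of the pair was 118.5 CPM in niche against 6.04 in general macrophages in normal marrow. In metastatic marrow it was 134.7 against 14.97 CPM. Hba-a1 (-0.05), Hbb-bt (3.38) and Alas2 (1.31) did not pass (edgeR adjusted p = 0.992, 0.266 and 0.716). Here too the sign turned for Hbb-bt without niche normal library A (-3.17), and Hba-a1 ran from -0.48 to 2.99 over the fits that left out 1 library, with the highest value without general normal replicate 1. Slc4a1 and Hbb-bs were higher in 6 of 6 niche libraries than in any general library, as were 1.97% of tested genes. The calls of all 3 genes were kept when any 1 library was left out, with the largest adjusted p at 0.019, for Hba-a2. Hba-a2 was not called by limma-voom (3.87 on the log2 scale, adjusted p = 0.193).

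**Figure D3:**
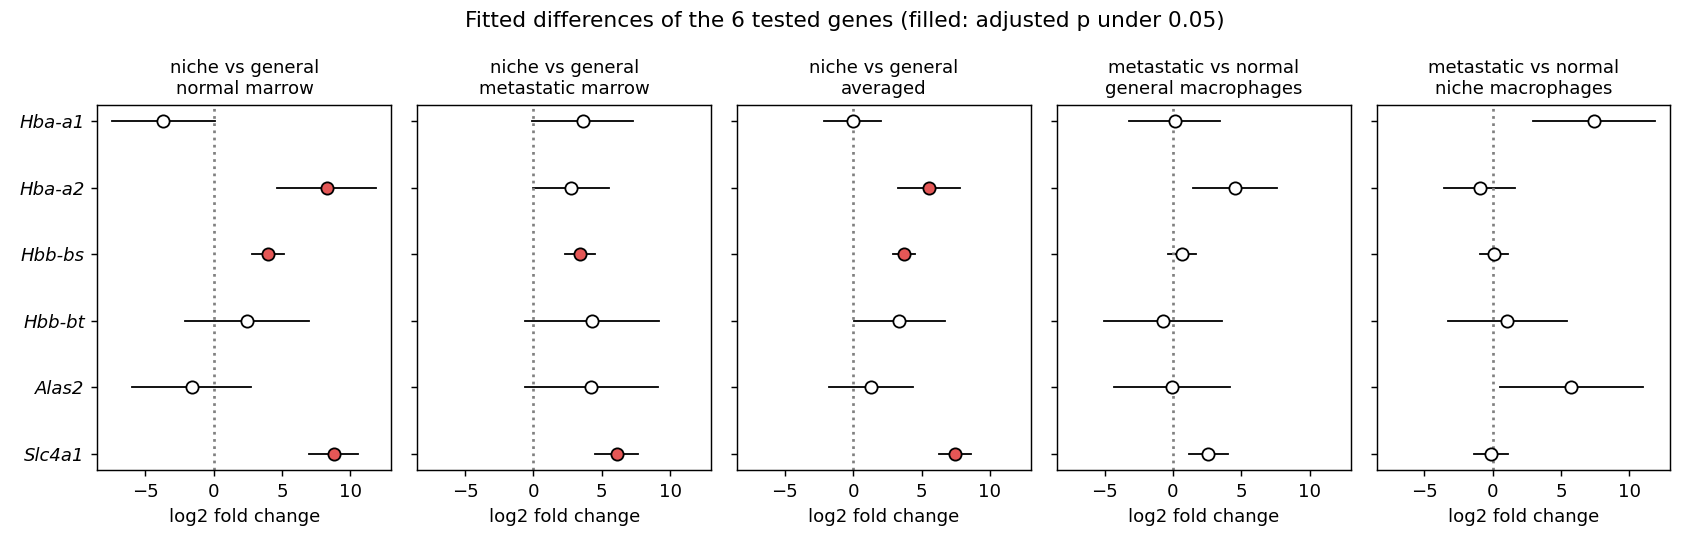
Log2 fold change (points) with its 95% interval (lines) for the 6 tested genes in 5 comparisons, one panel each; filled points have an edgeR adjusted p under 0.05. Slc4a1 and Hbb-bs are called with short intervals in all 3 comparisons of the populations, Hba-a2 in 2 of them, and no gene is called in the 2 comparisons of marrow states.

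The second comparison asked whether metastasis changed these genes. In general macrophages edgeR called 0 of the 6, against 0.0155% of all tested genes. At an unadjusted p under 0.05 there were 2 of the 6, against 5.12% of all tested genes, DESeq2 called 2 (1.19% of its genes) and limma-voom 0 (0.179%). Hba-a2 was at 0.481, 0.356 and 0.300 CPM in normal and at 3.54, 5.92 and 17.1 CPM in metastatic marrow, and the fitted log2 difference was 4.53 (edgeR adjusted p = 0.944; DESeq2 adjusted p = 0.0302). The 2 groups of Hba-a2 did not overlap, as for 7.27% of tested genes with metastatic marrow higher, whereas the sum of the alpha pair did overlap (0.356 to 17.3 against 6.57 to 28.9 CPM). The fitted log2 difference of Slc4a1 was 2.59 (95% interval 1.16 to 4.02; edgeR adjusted p = 0.711; DESeq2 adjusted p = 0.0391), with general metastatic replicate 2 inside the range of the normal libraries. That of Hbb-bs was 0.67 (95% interval -0.36 to 1.70; edgeR adjusted p = 1).

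In niche macrophages edgeR again called 0 of the 6 between marrow states, against 0.00776% of all tested genes, with 2 at an unadjusted p under 0.05 (12.7% of all), 2 called by DESeq2 (8.19% of its genes) and 0 by limma-voom (0.0854%). Those 2 were Hba-a1 and Alas2, whose metastatic libraries were all above the normal ones, as for 5.63% of tested genes. The fitted log2 difference of Hba-a1 was 7.40 ± 2.13 (SE; edgeR adjusted p = 0.305; DESeq2 adjusted p = 5.03e-05). The alpha pair as a sum overlapped between the states, at 159, 128 and 68.4 CPM in normal and 276, 55.2 and 73.4 CPM in metastatic marrow. For Alas2 the fitted log2 difference was 5.76 ± 2.49 (SE; edgeR adjusted p = 0.381; DESeq2 adjusted p = 0.0195), and its 95% interval ran from 0.55 to 11. Slc4a1 (-0.12, 95% interval -1.36 to 1.13) and Hbb-bs (0.12, 95% interval -0.90 to 1.14) did not pass either (edgeR adjusted p = 0.987 and 0.984).

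Whether the difference between populations itself changed with metastasis was tested as an interaction. edgeR called 0 of the 6 genes and 0 of 12882 (0%), with 3 of the 6 and 1016 of all genes (7.89%) at an unadjusted p under 0.05. DESeq2 called 2 of the 6, Hba-a1 (7.36 on the log2 scale, adjusted p = 0.0175) and Hba-a2 (-5.46, adjusted p = 0.0469), and 3.46% of the genes to which it gave an adjusted p. Limma-voom called 0 of both. The 2 copies of the alpha pair had interaction terms of opposite sign, 7.29 and -5.49 in edgeR (adjusted p = 0.462 and 0.464), and that of Hba-a1 was 1.19 without general normal replicate 1. The interaction term of Slc4a1 was -2.71 (edgeR adjusted p = 0.455).

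To compare genes with each other, levels were divided by the annotated exon length. In niche macrophages from normal marrow the mean level was 628 CPM per kb for Hbb-bs, 177 for Hba-a2, 71.6 for Hbb-bt, 43.7 for Slc4a1, 0.538 for Hba-a1 and 0.331 for Alas2. In niche macrophages from metastatic marrow it was 684 CPM per kb for Hbb-bs, 151 for Hbb-bt, 91.1 for both Hba-a1 and Hba-a2, 40.3 for Slc4a1 and 18.1 for Alas2. Hbb-bs was thus first in both, while the order of the other globin genes followed the division of counts within pairs. Among 10352 tested protein-coding genes, Hbb-bs ranked 24 and 21 by level per kb in niche macrophages from normal and metastatic marrow. In general macrophages it ranked 716 and 392. Slc4a1 ranked 654 and 613 in niche macrophages and 9519 and 9155 in general macrophages.

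Other genes of red cell production were taken from 6 lists, chosen with earlier results of these data known. None of the 8 symbols of other globins has a row in the table. Counts of the other 5 lists in the averaged comparison stand against 4.21% of all tested genes called by edgeR, 2.59% called higher, and 14.1% called by DESeq2. Of 17 genes of the red cell membrane and its skeleton, 15 were tested and 6 were called higher and 0 lower in niche macrophages averaged over marrow states, with a median log2 fold change of 5.52 against 0.05 over all tested genes. This count lay between 4 and 8 when 1 library was left out, and was 4 without general normal replicate 1 or 2 or general metastatic replicate 1, while DESeq2 called 11. Aqp1, the water channel of the red cell membrane, was at 72.4 to 84.9 CPM in niche normal libraries, 5.55 to 42.4 in niche metastatic ones and at most 4.05 in general ones (5.34 ± 0.94, SE; edgeR adjusted p = 0.00166). Ank1, the ankyrin that ties spectrin to band 3, rose by 7.21 (edgeR adjusted p = 0.00998), Ermap, a blood group protein, by 5.94 (edgeR adjusted p = 0.0122), and Add2, an adducin of the membrane skeleton, by 5.96 (edgeR adjusted p = 0.0214) on the log2 scale. For each of these 3 genes 1 niche normal library lay inside the range of the general libraries. Ank1 was at 2.11 CPM in library C against a general maximum of 3.20, Ermap at 0.649 in library A against 3.44, and Add2 at 0.151 in library C against 3.73 CPM. The calls of Aqp1, Ank1 and Ermap were kept in all 12 fits that left out 1 library, that of Add2 in 7 and that of Epb42, also called, in 5. Ank1, Ermap, Add2 and Epb42 passed the filter on low counts only with the help of their niche libraries. The count of 6, the median and these fold changes thus rest partly on that choice and are given as descriptions. In normal marrow alone edgeR called 2 of the 15, Aqp1 among them (2.47% of all tested genes), with 8 at an unadjusted p under 0.05 (19% of all), 9 called by DESeq2 (15.4%) and 2 by limma-voom (1.44%). That count of 2 was 1 without general normal replicate 1, 2 or 3 or niche metastatic replicate 2, and 4 without general metastatic replicate 2. In metastatic marrow alone edgeR called 0 (0.831% of all), with 10 of the 15 at an unadjusted p under 0.05 (8.6% of all tested genes), 8 called by DESeq2 (4.05%) and 4 by limma-voom (1.38%).

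Of 15 genes of haem synthesis and iron supply, all tested, 2 were called higher and 0 lower in the averaged comparison, with a median log2 fold change of 0.94. Neither is an enzyme of the haem pathway. Tfrc, the transferrin receptor that brings iron into the cell, was at 36.5 to 71.9 CPM in general normal, 75.7 to 196 in general metastatic, 129 to 229 in niche normal and 188 to 364 in niche metastatic libraries (1.38 ± 0.29, SE; edgeR adjusted p = 0.008). This call was kept in all 12 fits that left out 1 library and was not made by limma-voom (1.31 on the log2 scale, adjusted p = 0.0735). Slc25a37, the mitochondrial iron importer mitoferrin, rose by 1.22 ± 0.30 (SE; edgeR adjusted p = 0.0263), a call kept in 5 of 12 fits that left out 1 library. The count for this list was 1 without general normal replicate 3, general metastatic replicate 1, 2 or 3, niche normal library A or niche metastatic replicate 2. The 2 populations overlapped for Tfrc, and many cell types besides erythroblasts carry this receptor.

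Of 12 erythroid transcription factors, 11 were tested, with 1 called higher and 1 lower in the averaged comparison. Of the 11, 8 had a positive log2 fold change, with a median of 0.80 against 0.05 over all tested genes. DESeq2 called 6 of the 11 (against 14.1% of its genes) and limma-voom 2 (against 3.71%). Sox6, a repressor of embryonic globin genes, was called higher (6.2 on the log2 scale; edgeR adjusted p = 0.0281), but niche normal libraries were at 39.4, 0.149 and 0.301 CPM and the log2 value without niche normal library A was 3.28 (edgeR adjusted p = 0.146), and limma-voom did not call it (adjusted p = 0.133). Ikzf1, a lymphoid and myeloid as well as erythroid factor, was called lower at -0.62 (edgeR adjusted p = 0.0486), a call lost with RLE scaling (adjusted p = 0.0621), with library size only (adjusted p = 0.109) and with haemoglobin, immunoglobulin and mitochondrial genes left out of the scaling (adjusted p = 0.0508). The call of Sox6 was kept in 5 and that of Ikzf1 in 3 of 12 fits that left out 1 library. Sox6 passed the filter on low counts only with the help of its niche libraries, so its call is no separate support. Without general normal replicate 2 or 3, general metastatic replicate 2 or niche normal library A, 0 of the 11 were called. Myb, a factor of early progenitors, was higher in niche macrophages from normal marrow by 1.39 (edgeR adjusted p = 0.0347) and did not pass over both states (0.80; edgeR adjusted p = 0.0654; DESeq2 adjusted p = 0.0205). In normal marrow the call of Myb was kept in 4 of 12 fits that left out 1 library, with the largest adjusted p at 0.167 (without general normal replicate 2), and was not made by limma-voom (adjusted p = 0.0516). The other fits that lost it left out general normal replicate 1 or 3, general metastatic replicate 2 or 3, niche normal library B or C or niche metastatic replicate 2.

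Of 11 genes of erythropoietin signalling, 9 were tested and 0 were called by edgeR in the averaged comparison, with 1 of 9 at an unadjusted p under 0.05 (18.2% of all tested genes), 1 called by DESeq2 (14.1%) and 1 by limma-voom (3.71%). The smallest p-values belonged to Kit, the stem cell factor receptor (1.23 on the log2 scale; edgeR adjusted p = 0.0687), and Jak2, the kinase bound to the erythropoietin receptor (-0.66; edgeR adjusted p = 0.29).

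Of 18 symbols of red cell enzymes and late maturation, which include 2 older names of listed genes, 15 were tested, with 5 called higher and 1 lower. Car2, the red cell carbonic anhydrase II, was at 8.49 to 31.9 CPM in general and 115 to 185 CPM in niche libraries (3.48 ± 0.34, SE; edgeR adjusted p = 2.3e-06). Xpo7, a nuclear exportin of maturing erythroblasts, rose by 2.17 (edgeR adjusted p = 3.99e-05) and Tent5c, a poly(A) polymerase, by 2.10 (edgeR adjusted p = 0.000732) on the log2 scale. Tspo2, an erythroid membrane protein gene, had 0 counts in all 6 general libraries and also in niche normal library C. The other niche libraries held 6.90 and 9.64 CPM in normal and 7.52 to 26.6 CPM in metastatic marrow, so the gene passed the filter on low counts through niche libraries alone. Its niche mean was at least 68.3-fold higher when 3 counts are allowed in each general library. Tspo2 is among the 5 called higher (edgeR adjusted p = 0.0294). As the filter kept it for its niche level, that call is no separate support. Bnip3l, which acts in the removal of mitochondria, was lower by -0.96 on the log2 scale (edgeR adjusted p = 0.0215). It stood at -1.66 in normal marrow (edgeR adjusted p = 0.00917) and at -0.27 in metastatic marrow (edgeR unadjusted p = 0.426). The averaged value was -0.80 with library size only, where it did not pass (edgeR adjusted p = 0.0542), nor did it with limma-voom (adjusted p = 0.0978). The count of 6 called genes lay between 3 and 7 when 1 library was left out, and was 3 without general normal replicate 3, general metastatic replicate 1 or 2 or niche metastatic replicate 1. The calls of Car2, Xpo7 and Tent5c were kept in all 12 such fits, those of Bnip3l, Tspo2 and Cat in 6, 4 and 4. Between marrow states and in the interaction edgeR called 0 of the 65 tested genes of these lists. At an unadjusted p under 0.05 there were 4 of the 65 in general macrophages, 7 in niche macrophages and 6 in the interaction, near the 5.12%, 12.7% and 7.89% of all tested genes with such a p. For the same comparisons DESeq2 called 0, 1 and 0 and limma-voom 0 in each.

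**Figure D4:**
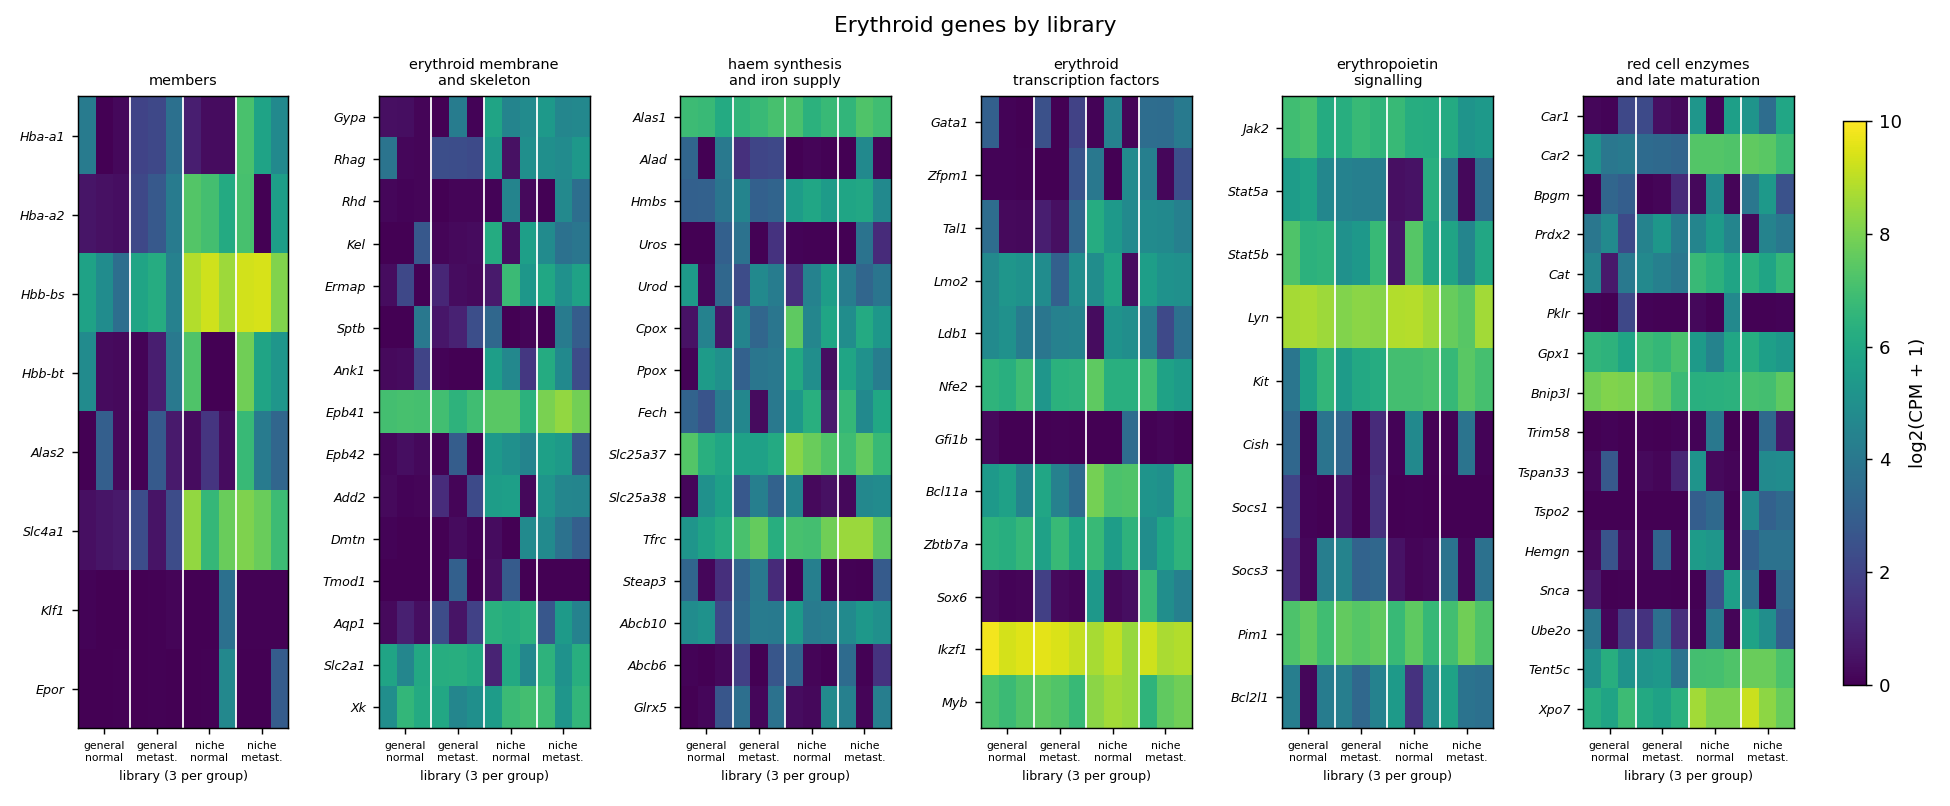
Level of the genes described here and of genes of the 5 lists, as log2(CPM + 1) by colour; each column is 1 library, with 3 libraries in each of the 4 groups. Among membrane and skeleton genes, Aqp1 is brighter in every niche library than in any general one, whereas most haem synthesis and erythropoietin signalling genes show no such step.

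The upstream sequence of the globin genes is shown because Hbb-bs and Hba-a2 were both called higher in niche macrophages. In the RefSeq promoter table of build GRCm38.p6, 7 of the 9 genes have an entry, and the 150 bases before the start site were searched on both strands for the CACCC box, the CCAAT box and the TATAA box. The GATA site was searched as AGATAA, as the same letters ending in G, and as both of these led by T in place of the first A. CACCC is the core bound by Klf1, and GATA1 binds the GATA site. In the stretches printed here no match overlaps another. All 4 globin genes held the CACCC, the CCAAT and the TATAA boxes together, which 1.10% of 32851 promoters did. Singly, 37.4% held CACCC, 24.5% CCAAT, 14.2% TATAA and 16% one of the GATA forms. Alas2, Klf1 and Epor held a GATA form and CACCC. The stretches next to the start site that lie outside annotated untranslated exons are printed 5′ to 3′, with matches in capitals. The CACCC match of Hbb-bs lies upstream of its printed stretch.
Hba-a2: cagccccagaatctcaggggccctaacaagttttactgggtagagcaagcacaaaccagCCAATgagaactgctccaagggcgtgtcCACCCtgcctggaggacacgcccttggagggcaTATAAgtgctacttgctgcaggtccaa
Hbb-bs: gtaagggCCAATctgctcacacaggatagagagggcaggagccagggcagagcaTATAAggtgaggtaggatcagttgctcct
They lie at chr11:32296342-32296488 on the plus strand and chr7:103827929-103828011 on the minus strand. The 150-base windows of Hba-a1 and Hba-a2 share an unbroken run of 147 bases, while those of Hbb-bs and Hbb-bt share at most 14.

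Across the 12 libraries, log2 CPM of Hbb-bs and Slc4a1 followed each other (Pearson r = 0.893), whereas Hba-a1 and Hba-a2 did not (r = 0.02). Alas2 had r between 0.0996 and 0.435 with the other 5 tested genes. These values are descriptions over 12 libraries that fall into populations of unlike level. Among 8139 genes whose mean reached 10 CPM, the genes most like the mean of the 4 globin genes were Dhx15 (r = 0.890), Brca1 (r = 0.887), Slc29a1 (r = 0.850), Ifit2 (r = 0.833), Vopp1 (r = 0.827) and Rhag (r = 0.802). Rhag is the only one of these in the lists above, as a membrane protein of the red cell. The genes most like the mean of Alas2 and Slc4a1 were Clcn3 (r = 0.923), Hpgds (r = 0.901), Gfra2 (r = 0.890), Pitpnc1 (r = 0.889), Slc39a1 (r = 0.881) and Tns1 (r = 0.881). For single genes, a choice made after their values were seen, Slc4a1 was most like Sema6d (r = 0.981), Sh3pxd2a (r = 0.976) and Paqr9 (r = 0.974), and Vcam1, an antigen of the niche sort, stood at r = 0.963. Hbb-bs was most like Cd163 (r = 0.960), another antigen of that sort.

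The markers of the labelled cells and of other marrow cells moved with the populations too. All 6 macrophage markers were detected in every group, and their summed level was 649 to 1155 CPM in general and 793 to 1921 CPM in niche libraries. Of the 6, edgeR called 3 higher in niche macrophages in the averaged comparison, against 2.59% of all tested genes. It called 3 higher in normal marrow (1.5% of all) and 1 in metastatic marrow (0.574%). Of the sorting antigens, the genes of VCAM1, CD163, CCR3 and F4/80 were called higher in niche macrophages in the averaged comparison, and the gene of CD11b was not called (-0.60; edgeR adjusted p = 0.0713). In metastatic marrow alone Adgre1, the gene of F4/80, was not called (1.18; edgeR adjusted p = 0.166). Against the 4.21% of all tested genes called in the averaged comparison, other marrow cells' markers were called as follows. Of 6 tested B and plasma cell markers, 5 were called higher in niche macrophages in the averaged comparison, and their sum was 85.7 to 213 CPM in general and 797 to 2843 CPM in niche libraries. Of 8 neutrophil markers 6 were called lower in niche macrophages (8637 to 10820 CPM against 12360 to 20280), and of 4 monocyte markers 4 (886 to 1388 against 4237 to 4838). Of 16 tested markers of T and NK cells, megakaryocytes, eosinophils, mast cells and basophils, and stromal and endothelial cells, edgeR called 0 in the averaged comparison, with 4 of 16 at an unadjusted p under 0.05 (18.2% of all tested genes), 3 called by DESeq2 (14.1%) and 0 by limma-voom (3.71%). The megakaryocyte genes Gp9 and Gp1bb were at 0 in 3 of the groups and the stromal gene Lepr in 3. The part of these cell types in the differences above was not tested.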

How the data were processed

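Per the labels' protocols, total RNA of sorted cells was depleted of ribosomal RNA and sequenced. The authors deposited 1 table of expected counts per gene, not normalized, of which 75% of values are whole within 1e-09. The submitters' processing notes name STAR 2.7.3a, Partek, DESeq2 1.40.2, R 4.3.1 and build mm10; the counting tool, annotation and strand setting are not given in the sources used here. Near-identical copies receive estimated shares of shared reads in such counts.

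Counts were rounded, filtered with filterByExpr (12882 genes), TMM-scaled and tested in edgeR 4.0.16 under R 4.3.3 (quasi-likelihood, 4 group means over 12 libraries, 8 residual degrees of freedom), with Benjamini-Hochberg adjustment over all tested genes and calls under 0.05. CPM uses TMM-scaled totals. Correlations used log2 CPM with a prior count of 2. Lengths and coordinates came from GENCODE M21, and promoters from RefSeq. DESeq2 1.42.0 and limma 3.58.1 (voom with sample quality weights, so tool and weights change together) served as alternatives, beside other scalings and filters and the leaving out of each library.

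The members and gene lists were chosen with earlier results of these data known. Of each list, up to 5 called genes with the smallest p in the averaged comparison are named, or 2 where none was called; Epb42 and Cat were added after their values were seen, and 1 gene is not reported here by name. The genes most alike are the 6 with the highest r at a mean of at least 10 CPM. No 2 libraries of a group agreed within sampling noise. The procedure was also run on simulated counts, whose outcome is not given here and is not used above. The floor of 3 counts covers counting error alone, as PCR copies of a molecule were not marked.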

Additional observations from a re-analysis of the deposited data

How the results depend on the processing

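The calls of Slc4a1 and Hbb-bs between populations kept their direction under every alternative run, and lost significance only with limma-voom and its sample quality weights (Hbb-bs in normal, Slc4a1 in metastatic marrow). A filter of 10 counts in every library left 1 of the 9 genes, Hbb-bs, which was called in each of the 3 comparisons of populations (count 1). With limma-voom 1 gene was called in normal and 1 in metastatic marrow. DESeq2 called 2 genes in each comparison of marrow states and in the interaction. Leaving out each library gave 2 to 3 genes in normal marrow, 2 in metastatic marrow, 3 averaged and 0 elsewhere. The cause of these differences between tools was not tested.

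Over all genes, DESeq2 called 1825, 480 and 1670 in normal marrow, in metastatic marrow and averaged, against 318, 107 and 542 with edgeR, and 141, 954 and 410 between marrow states in general and niche macrophages and in the interaction, against 2, 1 and 0. Limma-voom called 186, 178, 23 and 11 in normal marrow, in metastatic marrow and between the states in general and niche macrophages. With only the libraries of a comparison there were 163 calls in normal marrow and 0 between states in niche macrophages. Between states in general macrophages library size only gave 0 and no filter 5 calls; in niche macrophages RLE scaling and library size only gave 0, no filter and the 10-count filter 3, and removal of small non-coding RNA genes 2. Leaving out 1 library gave 176 to 402, 66 to 121, 331 to 640, 0 to 4, 0 to 66 and 0 to 16 calls in the 6 comparisons.

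Library size only moved the median log2 fold change of all genes from 0.04 to 0.29 in metastatic marrow, from 0.05 to 0.19 averaged, from -0.17 to 0.06 between states in niche macrophages and from -0.13 to 0.10 in the interaction, and the share of calls that were higher from 69.2% to 82.8% in metastatic marrow and from 61.4% to 74.0% averaged. The 10-count filter moved that share from 60.7% to 44.9% in normal marrow and to 47.3% averaged, DESeq2 to 48.7% and limma-voom to 80.6% in normal marrow. In metastatic marrow it was 80.4% with only the libraries of the comparison and 56.7% with the 9 numbered libraries and no block.

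Replicate numbers are shared by 3 groups. Deviations of same-numbered libraries from their group means had r between -0.00738 and 0.0337. With the wide spread between replicates, these values cannot show whether same-numbered libraries are paired. With a replicate block over those 9 libraries, 2 of the 6 genes were called between populations in metastatic marrow (117 genes in all, 104 without the block) and 0 between states in general macrophages (3 in all, 3 without); the fit without the block was added after the data were seen. No paired analysis was possible for the other comparisons because the titles of niche normal libraries share no number with the other groups, and the numbers of their columns differ from the titles.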
